A study of Homo sapiens with 8 samples.

Results

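The genes described here are 35 genes of the response to low oxygen. They comprise 3 subunits of the hypoxia-inducible factors (HIF), 3 genes of the oxygen-sensing hydroxylases and their feedback, and 29 other genes known as HIF targets outside core glycolysis. They were taken by symbol from a count table of 78932 Ensembl gene IDs. Each symbol matched 1 ID, and all 35 were among the 24289 genes that passed the filter on low counts. The libraries came from Molm13 and U937, established human myeloid lines used in work on acute myeloid leukaemia. They were made after polysome profiling, in which lysates are spread over a sucrose gradient by the number of ribosomes an mRNA carries. Cells labelled OE had received OGFOD1 from a lentiviral expression vector. Control libraries carry the words ctrl and Scr in their names, with no further account in the labels of what these cells had received. All cells were treated with cycloheximide, which holds ribosomes on mRNA, and no low-oxygen treatment is named in the labels. RNA was sequenced from a heavy pool, with 3 or more ribosomes, and from a light pool of free ribonucleoprotein, monosomes and disomes. The 4 groups (OE heavy, OE light, control heavy and control light) held 1 Molm13 and 1 U937 library each, so n = 2 per group with the line as the replicate. The labels do not say whether a line is 1 clone, and nothing in them describes separate cultures.

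Cells read oxygen through the stability of the HIF alpha subunits. With oxygen present, EGLN prolyl hydroxylases modify HIF1A and EPAS1, and the VHL ubiquitin ligase then marks them for degradation. When oxygen is short the alpha subunits last, pair with ARNT and bind a short DNA core, A or G followed by CGTG, near target genes. Targets adjust energy metabolism, mitochondria, acid balance, collagen and blood vessel growth, and some of them, such as the EGLN genes, feed back on the pathway. Regulation of HIF alpha is largely at the protein, so subunit mRNA need not follow activity. OGFOD1 belongs to the same superfamily of oxygen-dependent dioxygenases as the EGLN enzymes and hydroxylates a ribosomal protein. Blood-forming marrow, where acute myeloid leukaemia arises, is a tissue of low oxygen.

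The genotype label was checked first against its target. OGFOD1 was lower, not higher, in libraries labelled OE. The values were 25.3 and 16.7 CPM (read counts relative to each library's TMM-scaled total) in the Molm13 heavy and light libraries labelled OE, against 44.4 and 33.0 CPM in control. In U937 they were 12.4 and 10.1 CPM in libraries labelled OE, against 60.2 and 49.8 CPM in control. All 4 OE libraries lay below all 4 control libraries (log2 fold change, OE over control, -1.60, SE 0.30, edgeR quasi-likelihood adjusted p = 0.0178). Every genotype difference below therefore runs between libraries labelled OE and control, while OGFOD1 counts run opposite to the label. The reason was not tested, and an exchange of labels is only one possibility. If the labels were exchanged, each such difference would have the opposite sign. Total counts ranged from 25741930 to 89373133 per library. The Molm13 control light library, the deepest, stood apart: 2.49% of its counts were mitochondrial, against 19.8% to 23.3% in the other 3 light libraries and 0.360% to 0.941% in heavy libraries. In that gradient 8.18% of all tested genes were higher in the heavy pool than in the light by a log2 difference of 1 or more, against 19.6% to 24.7% in the other gradients. The calls between genotype labels and between pools are also given without it, and its part in levels and single pairs was not tested otherwise. Without it OGFOD1 was at -1.87 (SE 0.29, adjusted p = 8.2e-05). All 10 myeloid markers checked were measured, with a summed level of 968.7 to 1910.0 CPM in libraries labelled OE and 879.7 to 1353 CPM in control. Among them ITGAM, an integrin of myeloid maturation, rose (1.79, SE 0.26, adjusted p = 0.0116) and MPO, myeloperoxidase, fell (-1.01, SE 0.24, adjusted p = 0.0358), and both passed without that library (1.86 and -0.97). Of 12 markers of other cells 5 passed the filter. Their sum over the list was 103 to 244 CPM in libraries labelled OE and 47.4 to 133 CPM in control. Most of it was PECAM1, an endothelial and leukocyte adhesion gene, and CD3D, which encodes a chain of the T cell receptor complex. CD3D had 15.5 to 120 CPM in libraries labelled OE and 1.40 to 32.0 CPM in control (2.05, SE 0.66, adjusted p = 0.0912), and the epithelial keratin KRT18 fell (-1.45, SE 0.25, adjusted p = 0.0139). Without Molm13 control light CD3D passed (3.52, SE 0.35, adjusted p = 3.96e-07) and KRT18 was at -1.48. MS4A1 was at 0 in all libraries, and 7 of the 12, CD3E and EPCAM among them, were under 0.1 CPM throughout. The part of these markers in the results below was not tested. In bulk RNA, fewer cells of a kind and less RNA per cell cannot be told apart.

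The promoters of the 7 genes that passed the test between genotype labels over both pools are shown because they rose together. The sequences are the 250 bases before the RefSeq start on the gene's strand, 5′ to 3′, from the table of GRCh38.p14; capitals mark each place where the HIF core motif, ACGTG or GCGTG, is read on either strand (CACGT or CACGC when on the opposite one), with CACGTG where both strands overlap. For AK4 the first of 4 listed starts is shown.

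ADM: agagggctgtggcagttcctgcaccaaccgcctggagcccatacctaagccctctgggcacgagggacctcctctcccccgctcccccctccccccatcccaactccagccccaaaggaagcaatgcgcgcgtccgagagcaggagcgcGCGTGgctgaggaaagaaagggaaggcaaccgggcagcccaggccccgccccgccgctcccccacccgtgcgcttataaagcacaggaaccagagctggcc
AK4: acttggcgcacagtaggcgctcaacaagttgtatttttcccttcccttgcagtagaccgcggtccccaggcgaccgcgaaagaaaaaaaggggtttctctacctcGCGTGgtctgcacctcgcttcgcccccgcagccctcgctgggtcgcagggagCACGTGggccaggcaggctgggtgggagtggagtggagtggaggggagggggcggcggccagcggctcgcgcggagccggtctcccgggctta
ANKRD37: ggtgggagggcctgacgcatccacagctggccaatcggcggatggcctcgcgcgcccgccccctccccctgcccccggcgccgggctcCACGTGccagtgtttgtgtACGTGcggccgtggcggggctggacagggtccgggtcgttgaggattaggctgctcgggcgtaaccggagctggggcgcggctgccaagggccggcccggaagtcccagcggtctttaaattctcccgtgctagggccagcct
BHLHE40: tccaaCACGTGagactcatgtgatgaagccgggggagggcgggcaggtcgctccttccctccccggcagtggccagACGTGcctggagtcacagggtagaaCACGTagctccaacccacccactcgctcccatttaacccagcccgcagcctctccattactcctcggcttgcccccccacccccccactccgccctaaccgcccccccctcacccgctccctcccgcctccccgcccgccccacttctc
BNIP3: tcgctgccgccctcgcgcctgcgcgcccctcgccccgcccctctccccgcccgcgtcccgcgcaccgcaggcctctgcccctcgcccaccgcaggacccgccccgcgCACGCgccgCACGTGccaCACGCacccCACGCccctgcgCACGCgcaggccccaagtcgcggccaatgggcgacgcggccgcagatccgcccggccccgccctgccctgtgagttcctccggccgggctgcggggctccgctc
MIR210HG: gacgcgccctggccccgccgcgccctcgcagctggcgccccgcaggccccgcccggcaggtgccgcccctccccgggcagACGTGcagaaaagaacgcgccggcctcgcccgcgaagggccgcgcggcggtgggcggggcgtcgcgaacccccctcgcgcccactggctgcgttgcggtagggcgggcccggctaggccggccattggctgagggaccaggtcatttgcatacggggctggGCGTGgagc
P4HA1: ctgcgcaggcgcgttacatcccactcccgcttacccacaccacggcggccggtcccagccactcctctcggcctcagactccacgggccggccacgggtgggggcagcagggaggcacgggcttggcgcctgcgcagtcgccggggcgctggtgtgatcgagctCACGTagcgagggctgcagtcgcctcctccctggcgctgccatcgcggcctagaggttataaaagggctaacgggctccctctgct

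The stretches are chr11:10304823-10305072 for ADM, chr1:65147302-65147551 for AK4, chr4:185396591-185396840 for ANKRD37 and chr3:4979187-4979436 for BHLHE40, all on the plus strand. Those on the minus strand are chr10:131981924-131982173 for BNIP3, chr11:568458-568707 for MIR210HG and chr10:73096867-73097116 for P4HA1. MIR210HG is annotated as a long noncoding gene and the other 6 as protein coding. The stretches of BNIP3 and BHLHE40 held 5 and 3 separate places, those of AK4, ANKRD37 and MIR210HG 2 each, and those of ADM and P4HA1 1 each. In BNIP3 all 5 lay within a short run 104 to 143 bases before the start, and the CACGTG form was present in AK4, ANKRD37, BHLHE40 and BNIP3. CACGTG is also the E-box bound by many other factors.

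Counting 50 bases after the start as well, 29 of the 35 genes had 37 promoter windows of 300 bases. The motif was in 32 of the 37, or 86.5%, against 48.4% of 35114 windows of all genes. Windows of 1 gene can overlap, and by gene it was in 25 of 29, or 86.2%, against 52.4%. Most of the list was picked as known HIF targets, so these shares are no independent evidence about them. The ACGTG form was in 48.6% of the windows, against 21.4% of all windows, and 45.9% held at least 2 places, against 19.9%. CACGTG was in 27.0%, against 7.26%. The windows of these genes were also richer in G and C, with a median of 69.3% against 58.7%, and held a median of 31 CG pairs against 14; the part of base composition in the motif share was not tested. No match was found in the windows of ARNT, EGLN3, P4HA2 and SLC6A8 or at 1 of 2 HIF1A starts. A match is a string of letters and says nothing of binding in these cells.

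**Figure D1:**
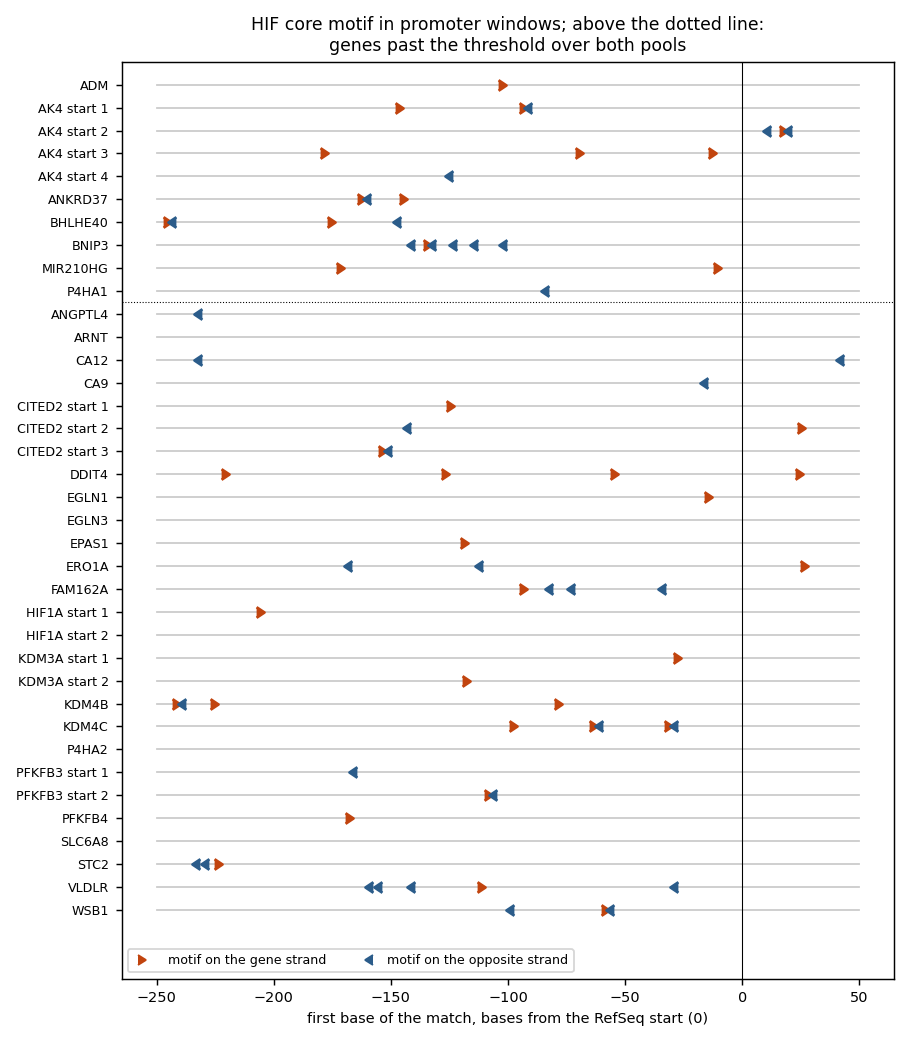
Places of the HIF core motif (ACGTG or GCGTG) in the promoter windows of 29 genes; the x axis is the distance in bases from the RefSeq start, right-pointing marks are on the gene's strand and left-pointing marks on the opposite strand. Windows above the dotted line belong to the 7 genes past the threshold over both pools. All 10 of these windows, 4 of them starts of AK4, hold a match, as do 32 of all 37 windows. The 5 places of BNIP3 sit close together.

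Levels were compared between genes only per kilobase of exon. On that scale DDIT4, an inhibitor of mTORC1 signalling, was the highest of the 35, with a mean over 8 libraries of 150.2 CPM per kb (range 29.6 to 413). FAM162A, a mitochondrial protein gene (80.0, range 28.6 to 149 CPM per kb), and the mitophagy receptors BNIP3L (45.6, range 10.6 to 92.2) and BNIP3 (36.6, range 10.5 to 77.3) followed, with P4HA1 at 34.3 CPM per kb (range 7.77 to 67.4). The ranges of these genes overlap, so their order is that of the means alone, and it differed between the genotype labels. DDIT4 averaged 217.5 CPM per kb in the 4 libraries labelled OE and 82.8 in the 4 controls, where FAM162A was the highest at 84.0 (75.9 under OE). P4HA1 averaged 53.9 CPM per kb under OE, beside BNIP3 at 52.2, and 14.8 in control, where NDRG1 stood above it at 20.7. HIF1A had 3.48 CPM per kb (range 2.63 to 4.65) and its partner ARNT 3.13 (range 2.31 to 3.84), and these too overlap. EPAS1, the second alpha subunit, averaged 0.290 CPM per kb (range 0.119 to 0.462), below every HIF1A value. At the bottom, EGLN3 averaged 0.0199 and CA12 0.0174 CPM per kb, on 70 and 65 counts summed over all 8 libraries.

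**Figure D2:**
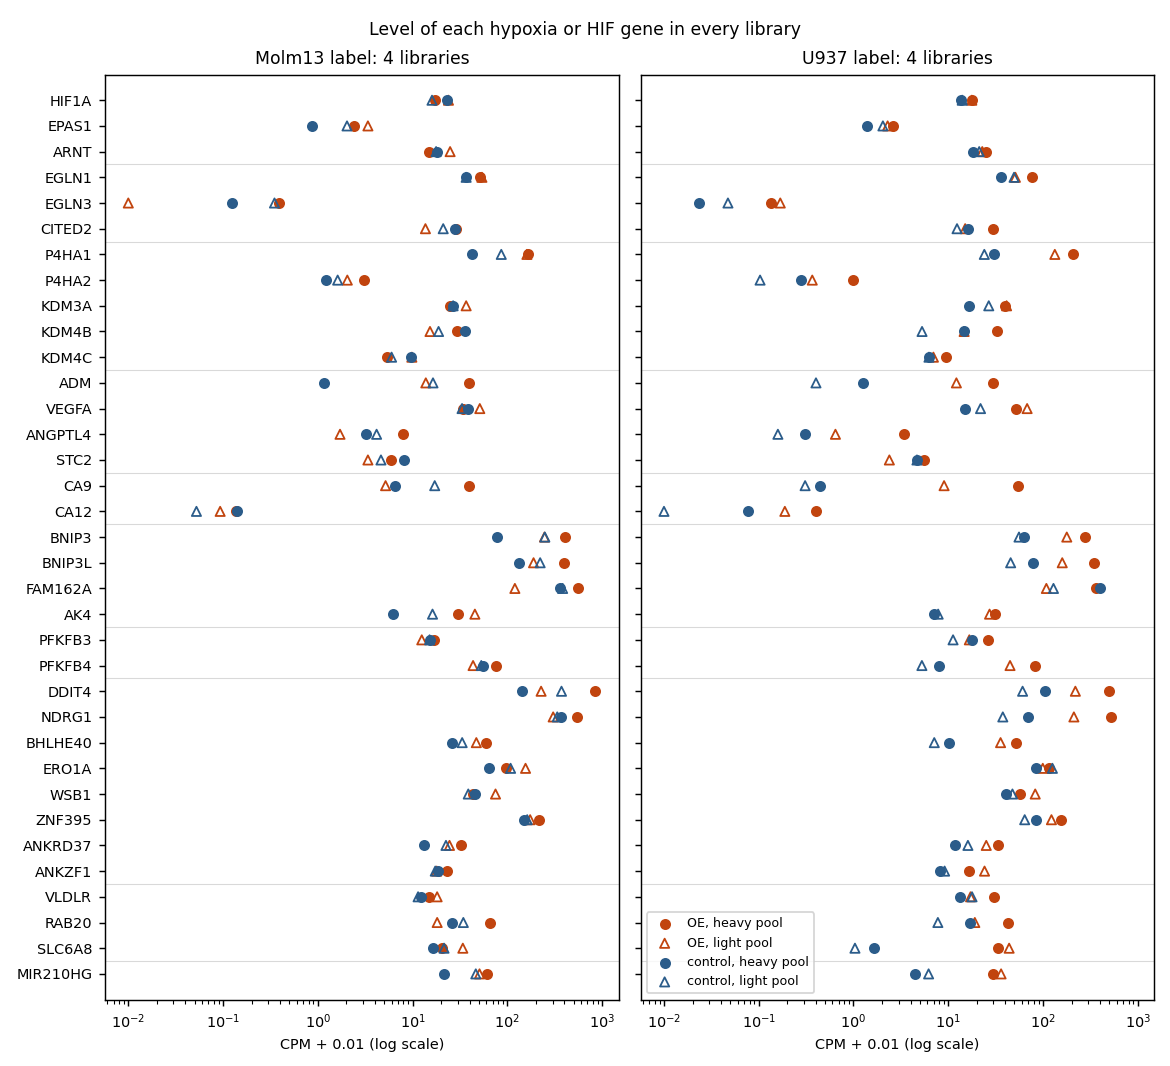
Level of each of the 35 genes in every library, in CPM plus 0.01 on a log axis, Molm13 libraries in the left panel and U937 libraries in the right; orange marks are libraries labelled OE, blue marks control, filled circles heavy pools and open triangles light pools. In U937 both orange marks lie right of both blue marks for 29 genes (19.2% of all tested genes). In Molm13 this holds for 10 (11.2%), and the control light library lies among or above the OE libraries for several, such as ADM and BNIP3.

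Over both pools, 7 of the 35 genes rose in libraries labelled OE and 0 fell, where 2.01% of all tested genes rose and 2.36% fell (edgeR quasi-likelihood test, threshold 0.05 after Benjamini-Hochberg adjustment over all tested genes). The 7 were AK4, P4HA1, BHLHE40, MIR210HG, ADM, BNIP3 and ANKRD37. The log2 fold change was positive for 33 of the 35, against 46.7% of all tested genes, with a median of 0.82 against -0.05. The negative values were those of STC2 and FAM162A, both at -0.42. At an unadjusted p under 0.05, 24 of the 35 were higher, against 9.96% of all tested genes. Both pools of a gradient enter this test as if they were separate samples. When each gradient's pools were added up first, 0 of the 35 passed in edgeR, with the lowest adjusted p at 0.117 and 20 genes at an unadjusted p under 0.05, while 33 were positive and the median was 0.81; 0 of all 24289 tested genes passed that fit, with 4186 at an unadjusted p under 0.05. Without the line term 1 of the 35 passed, as did 116 of all tested genes, 45 higher and 71 lower. Under upper-quartile scaling 9 passed, and 61% of the calls over all genes were upward in place of 45.9%.

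Effect sizes below are log2 fold changes, OE over control, with their SE. HIF subunits and the hydroxylase genes gave no call. HIF1A had 17.2 and 23.9 CPM in the Molm13 heavy and light libraries labelled OE, against 23.0 and 16.0 CPM in control. U937 values were 17.9 and 17.7 CPM under OE, against 13.6 and 14.0 CPM in control. The HIF1A ranges overlap, and the fitted log2 fold change was 0.23 (SE 0.23, adjusted p = 0.614). ARNT was at 0.21 (SE 0.23) and also overlapped. EPAS1 had 2.41 and 3.37 CPM in Molm13 heavy and light OE libraries, against 0.865 and 2.02 CPM in control, and in U937 2.58 and 2.28 CPM, against 1.36 and 2.03 CPM. All 4 OE libraries lay above all 4 controls for EPAS1, but it did not pass (0.82, SE 0.32, adjusted p = 0.153). EGLN1, the main HIF prolyl hydroxylase, likewise did not overlap, with 51.1 to 76.2 CPM in OE libraries and 35.8 to 49.5 CPM in control (0.55, SE 0.23, adjusted p = 0.187). EGLN3 was too low to read: it had 0 counts in Molm13 OE light, where the exact 95% limit is 3.69 counts (counting error only), and at most 32 counts in any library. CITED2, which competes with HIF alpha for coactivators, was at 0.14 (SE 0.25).

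Among the collagen hydroxylases and histone demethylases, P4HA1, a catalytic subunit of the enzyme that hydroxylates collagen, was the only one to pass. P4HA1 had 164 and 161 CPM in Molm13 heavy and light libraries labelled OE, against 42.3 and 86.4 CPM in control. In U937 P4HA1 had 209 and 133 CPM under OE, against 30.3 and 24.0 CPM in control. Every OE library exceeded every control library, and P4HA1 rose by 1.99 (SE 0.34, adjusted p = 0.0135). P4HA2, its paralogue, was at 1.22 (SE 0.44, adjusted p = 0.118) on low levels, 0.357 to 3.04 CPM in OE libraries and 0.0933 to 1.61 CPM in control. The histone lysine demethylases KDM3A, KDM4B and KDM4C were at 0.55, 0.51 and 0.20, none past the threshold. The log2 differences of KDM4B were 1.17 and 1.47 in the U937 heavy and light pairs and -0.26 and -0.30 in the Molm13 ones, a contrast between lines that was not tested.

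Of 4 secreted factors ADM rose. ADM encodes adrenomedullin, a vasodilator peptide. It had 39.4 and 13.8 CPM in Molm13 heavy and light OE libraries, against 1.15 and 16.4 CPM in control. In U937 ADM had 29.7 and 12.2 CPM under OE, against 1.24 and 0.392 CPM in control. OE was higher in 3 of 4 pairs. The exception was the Molm13 light pair, which uses the control library that stood apart; the other 3 controls held 0.392 to 1.24 CPM. ADM rose by 2.97 (SE 0.64, adjusted p = 0.0279), and by 4.89 without that library. VEGFA, the vessel growth factor, was at 0.96 (SE 0.32, adjusted p = 0.0961) and ANGPTL4, an inhibitor of lipoprotein lipase, at 1.19 (SE 0.51, adjusted p = 0.195). STC2, a stanniocalcin glycoprotein, was negative in 3 of 4 pairs (-0.42, SE 0.26, adjusted p = 0.374).

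The carbonic anhydrases CA9 and CA12, surface enzymes that hydrate carbon dioxide, did not pass. CA9 had 39.4 and 5.18 CPM in Molm13 heavy and light OE libraries, against 6.59 and 17.1 CPM in control. In U937 CA9 had 54.0 and 9.03 CPM under OE, against 0.432 and 0.299 CPM in control. U937 OE libraries were thus far above their controls (a ratio of 86.2 between means over the pools), while in Molm13 the groups overlapped. The U937 control light value rests on 16 counts (exact 95% limits 0.171 to 0.485 CPM, counting error only). CA9 was at 2.87 over both pools (SE 0.98, adjusted p = 0.105). Of the exonic bases of CA9 38.5% are shared with ARHGEF39 on the opposite strand, whose reads cannot be told apart here. CA12 had 0 to 31 counts per library and is not read further.

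Of 4 mitochondrial genes AK4 and BNIP3 rose. AK4 is an adenylate kinase of the mitochondrial matrix. AK4 had 30.3 and 45.5 CPM in Molm13 heavy and light OE libraries, against 6.26 and 16.2 CPM in control. In U937 AK4 had 30.9 and 27.3 CPM under OE, against 7.12 and 7.82 CPM in control. No OE library reached down to a control, and AK4 was the only one of the 35 higher by at least 1 in all 4 pairs, as were 0.675% of all tested genes (1.90, SE 0.27, adjusted p = 0.00982). BNIP3, a receptor for mitophagy, had 411 and 247 CPM in Molm13 heavy and light OE libraries, against 77.8 and 249 CPM in control. In U937 BNIP3 had 275 and 178 CPM under OE, against 63.3 and 55.8 CPM in control. BNIP3 was higher in 3 pairs and level in the Molm13 light pair (-0.01), and it rose by 1.47 overall (SE 0.34, adjusted p = 0.0328). Its relative BNIP3L followed the same order of libraries without passing (1.28, SE 0.36, adjusted p = 0.0609). FAM162A had the opposite sign, at -0.42 (SE 0.32), lower under OE in 3 of 4 pairs, and was at -0.02 (SE 0.28) without Molm13 control light.

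In the group of stress, growth and transcription genes 2 of 8 rose and all 8 were positive. BHLHE40, a transcriptional repressor, had 60.2 and 47.1 CPM in Molm13 heavy and light OE libraries, against 25.8 and 33.4 CPM in control. In U937 BHLHE40 had 52.5 and 35.7 CPM under OE, against 10.1 and 7.11 CPM in control. All BHLHE40 OE values lay above all control values, and it rose by 1.59 (SE 0.32, adjusted p = 0.0233). ANKRD37, an ankyrin repeat gene, had 32.3 and 24.5 CPM in Molm13 heavy and light OE libraries, against 13.1 and 22.5 CPM in control. In U937 ANKRD37 had 33.7 and 25.2 CPM under OE, against 11.7 and 16.1 CPM in control. Its groups did not overlap either (0.89, SE 0.22, adjusted p = 0.0435), with 35.2% of its exonic bases shared with UFSP2 on the opposite strand. DDIT4 (1.40, SE 0.39, adjusted p = 0.0613) and NDRG1, a growth and differentiation gene (1.44, SE 0.49, adjusted p = 0.102), did not pass. ERO1A, an oxidase of disulfide formation, was at 0.34, ZNF395 at 0.61, ANKZF1, which acts on stalled ribosomes, at 0.71 and WSB1, a ubiquitin ligase receptor, at 0.54, none past the threshold. ZNF395 shares 34.9% of its exonic bases with FBXO16.

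The long noncoding MIR210HG, host transcript of a hypoxia-induced microRNA, had 60.6 and 50.9 CPM in Molm13 heavy and light OE libraries, against 21.4 and 46.5 CPM in control. In U937 MIR210HG had 29.4 and 36.1 CPM under OE, against 4.46 and 6.20 CPM in control. It was higher in all 4 pairs (1.71, SE 0.36, adjusted p = 0.0249). The creatine transporter SLC6A8 had the third highest estimate of the 35 and did not pass (2.60, SE 0.79, adjusted p = 0.0754). It had 33.5 and 43.9 CPM in U937 OE libraries, against 1.62 and 1.03 CPM in control. In Molm13 it had 20.6 and 33.9 CPM under OE, against 16.6 and 21.5 CPM in control. Of the remaining genes the lipoprotein receptor VLDLR was at 0.54, the endosomal GTPase RAB20 at 0.72, and PFKFB3 and PFKFB4, which set the level of a regulator of glycolysis, at 0.24 and 1.64 (adjusted p = 0.101 for PFKFB4).

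**Figure D3:**
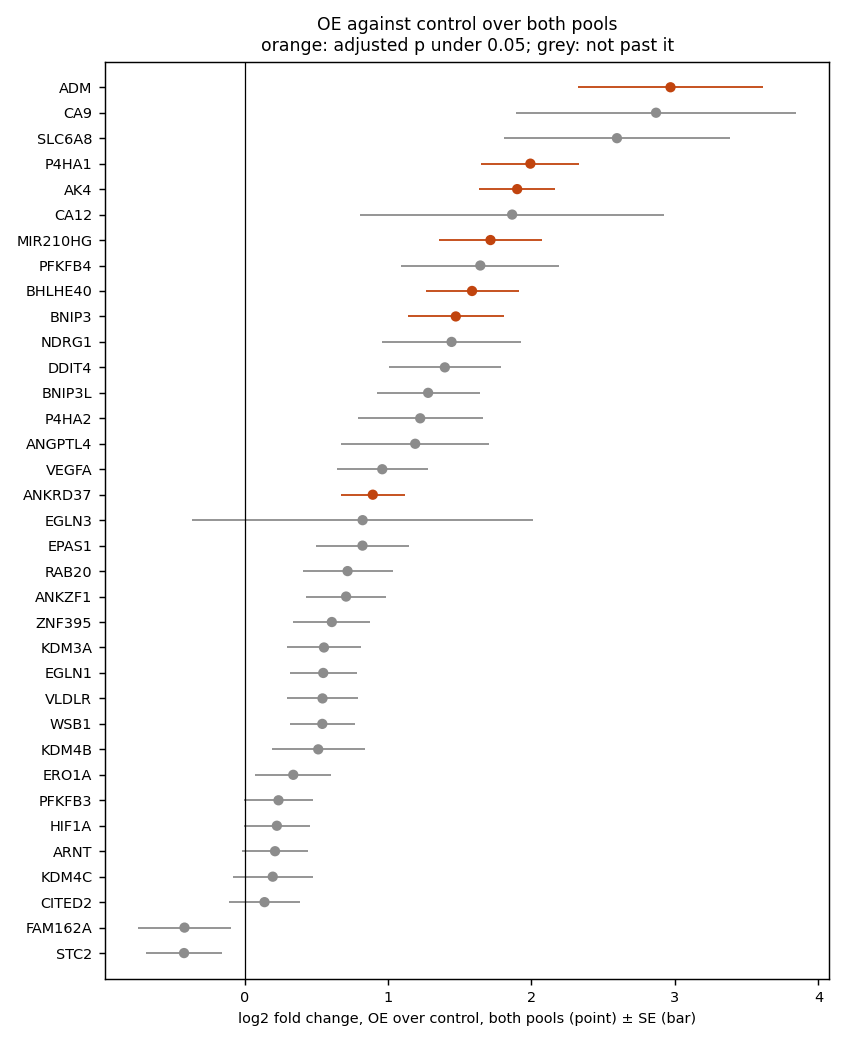
Log2 fold change over both pools, OE over control, for the 35 genes (point) with its standard error (bar), orange for the 7 genes at an adjusted p under 0.05. Of the 35 points 33 lie right of 0, and CA9, SLC6A8 and CA12 have large estimates with wide bars.

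Counted by matched pair of line and pool, OE exceeded control in 4 of 4 pairs for 11 of the 35 genes (11% of all tested genes) and was lower in 4 of 4 for 0 (14.4%). It was higher in 3 of 4 pairs for 21, and the odd pair was Molm13 light for 12 of them and Molm13 heavy for 7. All 4 OE libraries lay above all 4 controls for 6 genes, EPAS1, EGLN1, P4HA1, AK4, BHLHE40 and ANKRD37, and for 3.43% of all tested genes. The Molm13 control light library was the highest of the 4 controls for 17 of the 35, as it was for 21.7% of all tested genes.

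The pairs were unlike in size. In the U937 heavy pair 24 of the 35 had a log2 difference of 1 or more, against 15.3% of all tested genes, and in the U937 light pair 20, against 16.4%. No member was lower by that much in either (10.9% and 13.3% of all tested genes). The medians were 1.52 and 1.46. In the Molm13 heavy pair 15 were higher by at least 1 (13.4%) and 0 lower (15.6%), with a median of 0.56. In the Molm13 light pair, which uses the control library that stands apart, 1 was higher (13.8%) and 4 were lower (19.4%), with a median of 0.12. Each pair is 1 library against 1, so these differences have no replicate check.

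**Figure D4:**
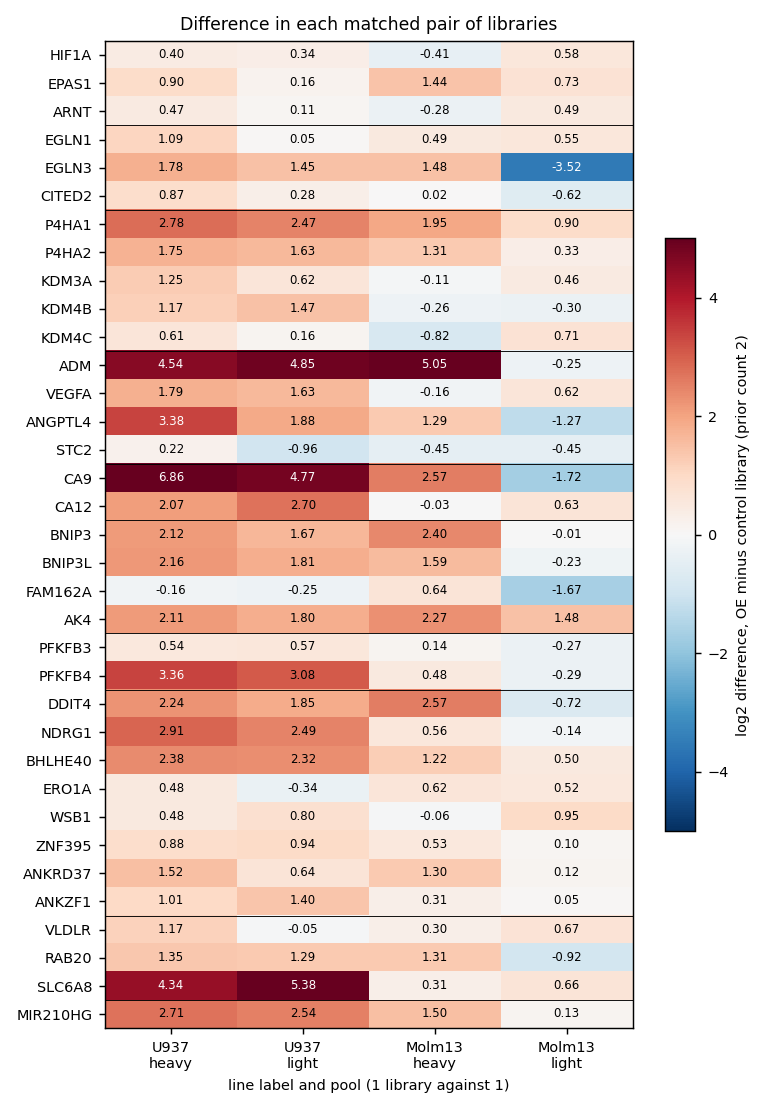
Log2 difference, OE minus control, in each matched pair of libraries (prior count 2), rows by role and columns by line and pool; red is higher in OE and blue lower. The U937 columns are red almost throughout, the Molm13 heavy column is red for ADM, CA9, DDIT4 and BNIP3, and the Molm13 light column is pale or blue for the same genes.

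Set line against line, U937 differed from Molm13 in the control cells more than in cells labelled OE. In control heavy pools 12 of the 35 were lower by at least 1 in U937 than in Molm13 and 0 higher (11% and 7.79% of all tested genes), with a median of -0.70. In control light pools 20 were lower and 0 higher (20.9% and 14.9%), with a median of -1.34. That comparison uses the Molm13 control light library that stands apart, as do the Molm13 control light values below. In OE heavy pools 4 were lower and 1 higher (9.07% and 12.7%), with a median of 0.06, and in OE light pools 2 were lower and 1 higher (8.44% and 8.95%), with a median of -0.12. PFKFB4 shows the pattern: it had 81.9 and 44.9 CPM in U937 heavy and light OE libraries and 76.4 and 43.5 CPM in Molm13 ones. In control libraries PFKFB4 had 7.94 and 5.26 CPM in U937 and 54.9 and 53.1 CPM in Molm13. NDRG1 had 524 and 212 CPM in U937 heavy and light OE libraries and 541 and 305 CPM in Molm13 ones, and 69.8 and 37.7 CPM in U937 controls and 368 and 337 CPM in Molm13 controls. Each cell of this comparison is 1 library, and the difference between the lines was not tested.

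Within the heavy pool, RNA on polysomes, 0 of the 35 passed with edgeR, where 0% of all tested genes rose and 0.00412% fell. The median was 1.33, against -0.03 for all tested genes, 32 of 35 were positive (48.5% of all tested genes), and 19 were higher at an unadjusted p under 0.05 (8.39%). By DESeq2 11 passed, where 597 of 20050 genes with an adjusted p were higher and 406 lower; by limma voom 0 of the 35 and 0 of all tested genes did. Smallest in p were AK4 at 2.19 (SE 0.38), P4HA1 at 2.43 (SE 0.49), ADM at 4.78 (SE 0.97) and BNIP3 at 2.24 (SE 0.48), each with an edgeR adjusted p of 0.074. In the light pool 0 of the 35 passed with edgeR (0% of all tested genes), the median was 0.53 against -0.05, 30 were positive (47.1%), 7 were higher at an unadjusted p under 0.05 (5.18%) and 1, FAM162A, was lower (9.65%). By DESeq2 3 passed, where 307 of 16754 genes with an adjusted p were higher and 623 lower; by limma voom 0 of the 35 and 0 of all tested genes did. Here the 4 smallest p were those of AK4 at 1.61 (SE 0.37, adjusted p = 0.146), P4HA1 at 1.55 (SE 0.48, adjusted p = 0.182), BHLHE40 at 1.32 (SE 0.45, adjusted p = 0.21) and WSB1 at 0.88 (SE 0.32, adjusted p = 0.241). WSB1 had 75.1 and 82.8 CPM in Molm13 and U937 OE light libraries, against 38.7 and 47.6 CPM in control. In heavy pools WSB1 had 43.6 and 57.1 CPM under OE, against 45.3 and 40.8 CPM in control, so its groups separated in the light pool and overlapped in the heavy one.

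The interaction asks whether the difference between genotype labels was larger in the heavy than in the light pool. No member passed with edgeR (0% of all tested genes), 6 were positive at an unadjusted p under 0.05 (3.81%), and DESeq2 and limma voom called 0. The median was 0.60, against 0.08 for all tested genes, and 26 were positive (53.9%). Leading by p were ADM (3.62, SE 1.28), ANGPTL4 (2.51, SE 0.96), DDIT4 (1.98, SE 0.79) and CA9 (3.82, SE 1.52), each at an edgeR adjusted p of 0.791. ANGPTL4 had 7.99 and 3.40 CPM in Molm13 and U937 OE heavy libraries, against 3.24 and 0.297 CPM in control. In light pools it had 1.71 and 0.635 CPM under OE, against 4.16 and 0.149 CPM in control. DDIT4 had 849.9 and 494 CPM in Molm13 and U937 OE heavy libraries, against 143 and 104 CPM in control. In light pools it had 227 and 219.6 CPM under OE, against 373 and 60.9 CPM in control. For both genes the Molm13 control light value is above its OE partner, and without that library the interaction was 0.43 for ANGPTL4, 0.74 for DDIT4, -0.12 for ADM and -0.36 for CA9, with a median over the 35 of -0.16.

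Without the Molm13 control light library more of the genes passed between genotype labels. Over both pools 19 of the 35 rose and 0 fell, where 7.24% of all tested genes rose and 5.63% fell. The 7 genes named above were among them, with P4HA1 at 2.46, AK4 at 2.15, BHLHE40 at 1.99, MIR210HG at 2.12, BNIP3 at 1.97 and ANKRD37 at 1.01. The other 12 were CA9 (4.20, SE 0.58), SLC6A8 (3.45, SE 0.50), PFKFB4 (2.20), DDIT4 (2.05), ANGPTL4 (2.01), NDRG1 (1.96), P4HA2 (1.89), BNIP3L (1.80), RAB20 (1.21), VEGFA (1.07), KDM4B (0.87) and ZNF395 (0.80). In the heavy pool 14 passed (3.89% of all tested genes rose and 2.07% fell) and in the light pool 11 (1.4% rose and 0.712% fell), each higher under OE. The heavy comparison contrasts no light library, and its median over the 35 was 1.23, against 1.33 with all libraries. AK4 was at 2.19 in both. The genes that passed there had smaller standard errors than with all libraries. More of the 35 also passed in the heavy pool when U937 control light was dropped instead. In the light pool without Molm13 control light, P4HA1 was at 2.54, BHLHE40 at 2.21, AK4 at 2.11, WSB1 at 0.79 and FAM162A at -0.28 (-1.04 with the library). In that light comparison the OE libraries face 1 control, from U937. HIF1A at 0.18, ARNT at 0.20 and EPAS1 at 0.83 did not pass without it either.

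Between pools, 3 of the 35 were higher in heavy than in light pools and 0 lower, where 15.8% of all tested genes were higher and 12.8% lower. Heavy was above light in 4 of 4 gradients for 7 of the 35 (20.9%) and below in 4 of 4 for 1, KDM3A (22%). The median was 0.06, against -0.04 for all tested genes, and 20 were positive (48.4%). Under upper-quartile scaling the medians were -0.12 for the 35 and -0.22 for all tested genes, 2 of the 35 passed, and 39.7% of calls over all genes were upward in place of 55.3%. FAM162A had 564 and 359 CPM in Molm13 and U937 OE heavy libraries, against 120.2 and 109 CPM in the light ones. In control it had 360.4 and 402 CPM in heavy libraries, against 384 and 129 CPM in light. Heavy exceeded light for FAM162A in 3 of 4 gradients, all but Molm13 control (1.35, SE 0.33, adjusted p = 0.00972). KDM4B had 29.7 and 32.7 CPM in Molm13 and U937 OE heavy libraries, against 15.3 and 14.7 CPM in light, and in control 35.5 and 14.5 CPM, against 18.8 and 5.28 CPM. Heavy was higher in 4 of 4 gradients (1.10, SE 0.32, adjusted p = 0.0209). CITED2 had 28.8 and 29.5 CPM in OE heavy libraries, against 13.7 and 15.1 CPM in light, and in control 28.4 and 16.1 CPM, against 21.1 and 12.4 CPM. It too was higher in all 4 gradients (0.71, SE 0.25, adjusted p = 0.0464), and was at 0.87 (adjusted p = 0.0136) without Molm13 control light. STC2 was the only one whose 4 heavy libraries (4.73 to 8.02 CPM) all lay above the 4 light ones (2.38 to 4.67 CPM), as did 9.12% of all tested genes, and it missed the threshold (0.71, SE 0.26, adjusted p = 0.0588). Within gradients labelled OE, 3 of the 35 were higher in the heavy pool (12.9% of all tested genes) and 0 lower (8.1%): FAM162A (1.97, SE 0.48, adjusted p = 0.0134), ANGPTL4 (2.43, SE 0.71, adjusted p = 0.0286) and RAB20 (1.45, SE 0.44, adjusted p = 0.035). Within control gradients 0 were higher (0.206%) and 0 lower (0.873%) with edgeR. There 2 of the 35, KDM4B (1.11) and ADM (-2.25), had an unadjusted p under 0.05, as did 4634 of all 24289 tested genes.

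The gradients again split by library. In Molm13 OE 9 of the 35 were higher by at least 1 in the heavy pool than in the light (24.7% of all tested genes), in U937 OE 11 (20.9%) and in U937 control 6 (19.6%), with 0 lower in any of the 3 (26%, 19.7% and 20.7%). In Molm13 control 1 was higher (8.18%) and 9 were lower (14.7%). ADM was at 1.51 in Molm13 OE, 1.28 in U937 OE and 1.59 in U937 control, and at -3.79 in Molm13 control. Without the Molm13 control light library 13 of the 35 were higher in heavy pools and 0 lower, where 21.2% of all tested genes were higher and 16.9% lower. CA9 (2.87), ANGPTL4 (2.16), FAM162A (1.73), KDM4B (1.52) and ADM (1.46) led them. The 7 genes that rose under OE over both pools were mixed in this respect: of them ADM and BHLHE40 (0.69) passed, and AK4 (-0.27), MIR210HG (0.03), ANKRD37 (0.01), P4HA1 (0.44) and BNIP3 (0.40) did not.

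**Figure D5:**
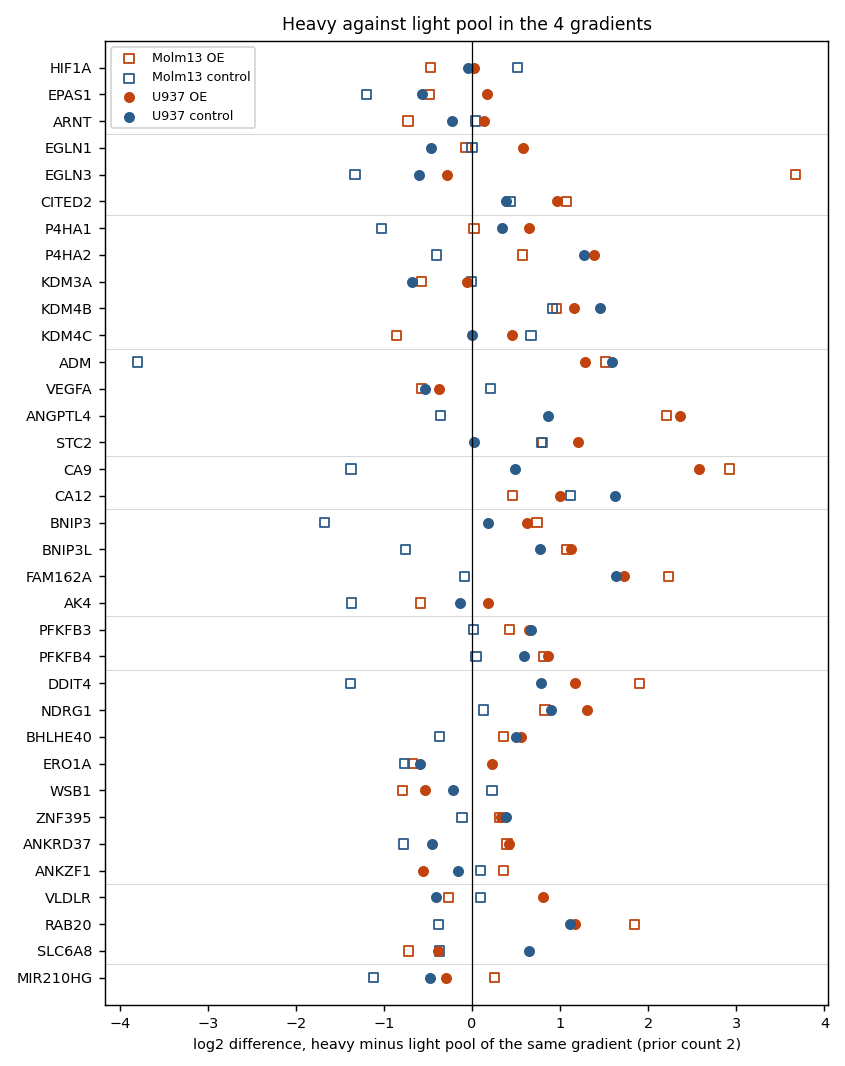
Log2 difference, heavy minus light pool of the same gradient (prior count 2), for the 35 genes; orange marks are OE gradients, blue marks control, open squares Molm13 and filled circles U937. The open blue squares of Molm13 control lie left of the other 3 gradients for ADM, CA9, BNIP3 and DDIT4, and KDM4B and CITED2 are right of 0 in all 4.

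Other genes of the pathway were taken from lists made for this work with earlier results of these data known, so they are no independent check. Their counts over both pools stand beside 2.01% of all tested genes that rose, 2.36% that fell and a median of -0.05. Of 18 tested HIF regulators outside the 35, such as VHL, the elongins and the asparaginyl hydroxylase HIF1AN, 0 rose and 0 fell over both pools with edgeR (1 at an unadjusted p under 0.05), with a median of -0.15. The 4 of smallest p were SIAH1 (0.68), ELOC (-0.67), SENP1 (-0.55) and CITED4 (-0.48). Between pools 5 of the 18 were higher in the heavy pool (15.8% of all tested genes), HIF1AN (1.45, adjusted p = 0.00485), PAGR1 (1.18) and USP20 (1.03) with the smallest p, and VHL was lower (-1.01, adjusted p = 0.00791; 12.8% of all tested genes were). Of 20 glycolytic HIF targets 1 rose and 0 fell, with a median of 0.27: the glucose transporter SLC2A3 (1.55, SE 0.37, adjusted p = 0.0363). ENO2 (2.24), PDK1 (0.68) and ALDOC (1.67) did not pass. Between pools 8 of the 20 were higher in the heavy pool (15.8% of all tested genes), with PFKL (1.21), TPI1 (1.83) and SLC16A3 (1.36) of smallest p, and PDK1 was lower (adjusted p = 0.0114), as were 12.8% of all tested genes. Of 32 further hypoxia targets that passed the filter 7 rose and 0 fell, with a median of 0.60. GPR146 (2.42, SE 0.42), TMEM45A (1.76, SE 0.36) and the glycogen branching enzyme GBE1 (1.39, SE 0.29) were among those of smallest p, and INSIG2, FUT11 and the chemokine receptor CXCR4 rose as well. Of 8 genes of the integrated stress response, another pathway that some of the 35 answer to, 0 passed with edgeR (4 at an unadjusted p under 0.05), with CHAC1 at -0.94 and ASNS at -0.88 on the negative side and PPP1R15A at 0.88 and ATF3 at 0.85 on the positive one. Without Molm13 control light, where 7.24% of all tested genes rose and 5.63% fell over both pools, 1 of the 18 regulators, 8 of the 20 glycolytic targets, 14 of the 32 further targets and 1 of the 8 stress response genes rose. In that fit 1 stress response gene and 0 of the others fell, and the medians were -0.16, 0.59 and 0.88 for the first 3 lists.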

How the data were processed

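RNA of 8 polysome profiling libraries was measured by sequencing. The authors deposited raw counts, whole reads per Ensembl gene. According to the submitters' processing notes, reads passed through cutadapt, STAR and featureCounts on GRCh38; tool versions, annotation release and strand setting: not given in the sources used here. Smart-seq library preparation is named in the labels' protocols. TALAM1, antisense to MALAT1, held at least 99.9% as many counts as MALAT1 in each library, so opposite strands were not told apart.

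The 35 genes and the other lists were chosen with earlier results of these data known. Genotype and pool were tested by edgeR quasi-likelihood (version 4.0.16 in R 4.3.3) on all 24289 genes passing filterByExpr, with TMM scaling and a model of group plus line (3 residual degrees of freedom). P-values were adjusted by Benjamini-Hochberg over all tested genes, with a threshold of 0.05. Standard errors come from the F statistic. CPM were computed here with TMM factors, and differences between single libraries use log2 CPM with a prior count of 2. With no separate cultures described, p-values reflect spread among these libraries alone, which may be technical. Alternatives were DESeq2 1.42.0, limma 3.58.1, other scalings, no filter, no line term, summed gradients and each library left out. The line labels pair the libraries, since both stand for a cell line; deviations from group means correlated at 0.0169 to 0.338 across genes. Genes given in full were those past the threshold in a comparison plus the 4 of smallest p in each; of the other lists, up to 4 of smallest p were named, and some of their genes are not reported here. SLC6A8, PFKFB4, NDRG1, EPAS1, EGLN1, HIF1A, INSIG2, FUT11 and CXCR4 were singled out after their values were seen. Gene types and lengths are from GENCODE release 29 and promoter windows from RefSeq on GRCh38.p14; 29 of the 35 symbols had a window.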

Additional observations from a re-analysis of the deposited data

Results flagged for a closer look

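KDM4B, a histone lysine demethylase, moved in opposite directions in the lines. Its mean difference, OE minus control over both pools, was 1.32 in U937 and -0.28 in Molm13, a difference between the lines of 1.60 on the log2 scale. KDM4B was flagged because both pools of each line shared the line's direction, so that agreement is no further result. The share of all tested genes meeting this rule was not counted. The difference between the lines was not tested, since each line has 1 gradient per genotype label.

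ANKRD37 differed in its place on the gradient. Its mean heavy minus light difference was 0.41 in the gradients labelled OE and -0.62 in control gradients, a difference of 1.02. Both lines lay on the same side in each, which was the rule for flagging it. How many of all tested genes meet that rule was not counted. The interaction in the edgeR quasi-likelihood test was 1.04 (SE 0.44, adjusted p = 0.791), so it did not pass after adjustment. Without the Molm13 control light library it was 0.79.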

How the results depend on the processing

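How many of the 35 genes passed depended on tool and library. Over both pools (7 as reported) the number was 8 with RLE factors, 9 with upper-quartile scaling and 15 with no filter on low counts. It was 1 with no replicate block, 11 with DESeq2 and 10 with limma voom. It was 13 when limma voom took each gradient as a random effect, with a fitted correlation within gradients of -0.26. A negative correlation narrows the error of a difference between gradients, so that fit is no stricter about shared gradients. With gradients summed the number was 0. Over all tested genes the calls were 1061 as reported, 1200 with RLE factors, 1233 with upper-quartile scaling and 116 with no replicate block. They were 2299 of 44611 with no filter and 2679 of 20992 with DESeq2. With limma voom they were 1244, with the random effect 3171 and with gradients summed 0. With no filter 14 of the 35 passed in the heavy pool, 3 in the light, 2 for the interaction and 5 between pools. Over all 44611 genes of that fit the calls were 1039, 560, 74 and 7146. DESeq2 gave 11 in the heavy pool (1003 of 20050 genes) and 3 in the light (930 of 16754). Between pools 3 passed as reported (6937 of all tested genes), 1 with no replicate block (5402) and 1 with the random effect (5512). Leaving the line pairing out changed no other of these counts of the 35. Upper-quartile scaling moved the median of all genes to 0.11 in the light pool and to -0.09 for the interaction. By size alone, 11 genes were higher in all 4 pairs, and 12 with library totals in place of TMM.

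Leaving out 1 library gave 0 to 19 over both pools, 0 to 15 in the heavy pool, 0 to 11 in the light, 0 to 7 for the interaction and 0 to 13 between pools. Over both pools, 19 passed if Molm13 control light was dropped, 3 if Molm13 control heavy or Molm13 OE heavy was, 1 if U937 control heavy was, 2 if U937 OE light was and 0 if U937 OE heavy was (12 at an unadjusted p under 0.05). Dropping U937 control light gave 15 in the heavy pool, 1 in the light (FAM162A, lower under OE at -1.64) and 7 for the interaction, and dropping Molm13 OE light gave 5 in the heavy pool. Between pools, dropping U937 control light gave 4 (2 higher, KDM4B and FAM162A, and 2 lower, ADM and MIR210HG), Molm13 OE light 0, U937 OE light 5, and Molm13 control heavy, U937 control heavy or either OE heavy library 1. In the fits named for genotype labels and the interaction, calls over all tested genes moved the same way as those of the 35. The gains and losses of those named fits were therefore not confined to the 35. Over both pools the fit without Molm13 OE light differed: more of the 35 passed than with all libraries, but fewer of all tested genes did. Between pools, calls over all tested genes fell in every fit named, while the 35 gained without U937 control light or U937 OE light. A library left alone in its group is assumed to vary like the others. The interaction of ADM ranged from -0.12 to 5.08 and that of CA9 from -0.36 to 6.59 over these fits; the negative values were those without Molm13 control light, and the cause was not tested. Of 344 values of 23 single results under alternatives, 247 kept direction and side of the threshold, 61 lost the call, 34 gained it and 2 reversed.

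With n = 2 per group and 3 residual degrees of freedom, a miss within a pool does not show that levels were alike. EGLN3 and CA12 were limited by depth.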
